A study of Mus musculus with 20 samples.

Results

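The metallothionein transcripts Mt1 and Mt2 were followed in the hearts of mice that ate fenofibrate with or without a working MuRF1 gene. All probes whose gene name on the array was Mt1 or Mt2 were taken, which gave 3 of 41174 probes for 2 of the 14579 genes tested. Probe A_51_P246317 measured Mt2 with 1 spot per array, probe A_51_P294979 measured Mt1 with 10 spots per array, and probe A_52_P423810 measured Mt1 with 1 dim spot. The genes were chosen because Mt2 rose at 8 weeks of fenofibrate in MuRF1 +/+ hearts. Values from that contrast, and from other comparisons that share its 8-week or chow MuRF1 +/+ hearts or lie within MuRF1 +/+ mice, are therefore a description without a test. The 2 transcripts are near-identical, so a probe can bind both, and the probes were kept apart.

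The study asked whether MuRF1, a ubiquitin ligase of striated muscle encoded by Trim63, regulates the heart's growth under fenofibrate, a drug that activates the fatty acid receptor PPARα. MuRF1 +/+ and MuRF1 -/- mice ate plain chow for 8 weeks (3 hearts of each genotype) or chow with 0.05% fenofibrate by weight for 3 weeks (4 hearts of each genotype) or 8 weeks (3 hearts of each genotype). No chow group of 3 weeks was analysed, so 3 weeks against chow also compares different times on a diet. The series text calls the groups strain-matched and puts the age of the mice between 3 and 8 weeks, without an age per group. The strain and sex of the heart mice, and how the MuRF1 gene was inactivated, are not given in the sources used here. Each of the 20 arrays carried 1 heart in the red channel (Cy5) and, in the green channel (Cy3), a common reference of RNA pooled from whole newborn C57BL/6 mice (postnatal day 1). A level is thus a log2 ratio of heart over pup pool, which has meaning only within a probe, and a difference of 1 is a doubling. Intact cardiac tissue was used, so fewer cells of a type and less RNA per cell cannot be told apart.

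Metallothioneins are small, cysteine-rich proteins that bind zinc and copper and take up cadmium and oxidants. Their genes are switched on by metal through the zinc-sensing transcription factor MTF-1, which binds short metal response elements in their promoters, and also by glucocorticoids, by interleukin-6 with STAT3, and by oxidative stress. Mt1 and Mt2 are expressed in many tissues, heart included, and are usually induced together, while Mt3 is known from the brain and Mt4 from stratified epithelium.

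In the gene order of the RefSeq annotation the 4 metallothionein genes stand side by side as Mt4, Mt3, Mt2 and Mt1. The promoter windows of Mt2 and Mt1 are shown because they carry matches to the core of the metal response element, and because both transcripts moved together in these hearts. Each window runs from 250 bases before to 50 bases after the start of the gene, from RefSeq in build GRCm38.p6, on the plus strand, and capitals mark the core of the metal response element. That core was searched as TGCACNC or TGCGCNC on both strands.
Mt2, chr8:94172368-94172667: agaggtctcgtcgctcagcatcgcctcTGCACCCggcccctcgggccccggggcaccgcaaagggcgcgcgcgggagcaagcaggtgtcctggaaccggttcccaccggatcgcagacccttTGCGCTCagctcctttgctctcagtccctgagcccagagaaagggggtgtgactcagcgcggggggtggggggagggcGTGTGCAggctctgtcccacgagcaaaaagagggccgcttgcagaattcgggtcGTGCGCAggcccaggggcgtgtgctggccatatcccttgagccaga
Mt1, chr8:94178839-94179138: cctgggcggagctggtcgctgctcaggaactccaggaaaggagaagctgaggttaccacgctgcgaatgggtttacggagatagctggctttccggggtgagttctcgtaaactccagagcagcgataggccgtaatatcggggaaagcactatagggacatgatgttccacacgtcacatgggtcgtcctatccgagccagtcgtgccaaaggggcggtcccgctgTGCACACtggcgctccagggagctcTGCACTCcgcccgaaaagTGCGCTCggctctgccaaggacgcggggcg

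The Mt2 window held the core at 4 places, a number reached by 0.295% of 32851 mouse promoter windows of the same length. The Mt1 window held it at 3 places, which 1.31% of all windows reach. The windows of Mt3 and Mt4 held it once each, and 25.7% of all windows hold it at least once. The Mt2 window also held 1 match to the antioxidant response element core, searched as TGACNNNGC, which 12.4% of all windows hold and which did not overlap a metal response core there. The PPARα response element (a 13-base direct repeat) and the glucocorticoid response element (a 15-base palindrome) had 0 exact matches in the 4 windows, and 0.0396% and 0.00913% of all windows hold one. A match is a description of letters, and the absence of one says only that these letters are not in this window.

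The arrays were of uneven quality. Between 34.8% and 52.5% of probes were well above background in the heart channel, a flag set by the scanner software, and the lowest shares were on replicate 2 of the MuRF1 +/+ 8-week group and replicate 4 of the MuRF1 -/- 3-week group. These 2 arrays stand apart, and values without them are given beside the main results. Trim63 checked the genotype labels: on its brighter probe all 10 MuRF1 -/- hearts lay between -1.19 and -0.49 and all 10 MuRF1 +/+ hearts between 0.79 and 2.85. The defining cardiomyocyte transcripts were far above the pup pool in every heart, with a mean log2 ratio over 8 markers of 3.02 to 3.60. The Y-linked transcripts Ddx3y and Eif2s3y both passed the background flag in 3 of 3 MuRF1 +/+ and 3 of 3 MuRF1 -/- chow hearts and in 2 of 3 MuRF1 -/- 8-week hearts. They did so together in 0 of 3 MuRF1 +/+ 8-week hearts and in 0 of 8 hearts at 3 weeks, so the Y-linked signal and the diet cannot be told apart in MuRF1 +/+ hearts or at 3 weeks. The sex-linked transcript Xist lay at -4.24 to -3.87 in MuRF1 +/+ and -4.13 to -3.49 in MuRF1 -/- chow hearts. At 3 weeks it lay at -0.50 to 0 and -0.20 to 0.20, and at 8 weeks at -2.70 to -0.90 and -4.05 to -2.72. A difference of sex between these groups thus cannot be told apart from diet either, nor from genotype at 8 weeks. No Mt1 or Mt2 spot was saturated, and the 2 bright probes were well above background on all 20 arrays.

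Mt2 was low on chow and at 3 weeks, and higher at 8 weeks of fenofibrate in both genotypes. The log2 levels of Mt2 in the MuRF1 +/+ chow hearts were -2.87, -2.36 and -3.16, and in the MuRF1 +/+ 3-week hearts -3.12, -3.16, -3.02 and -3.20. In the MuRF1 +/+ 8-week hearts they were 1.67, 0.32 and -0.98. All 3 lay above every other heart of the study, and they differed among themselves by more than the hearts of any other group. The MuRF1 -/- chow hearts had Mt2 at -1.78, -2.95 and -2.91, and the MuRF1 -/- 3-week hearts at -2.03, -2.98, -2.67 and -2.16. The MuRF1 -/- 8-week hearts stood at -1.02, -1.24 and -1.32. The first MuRF1 -/- chow heart was the highest Mt2 level outside the 8-week groups, and the MuRF1 -/- 8-week hearts lay close together and above all chow and 3-week hearts.

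**Figure D1:**
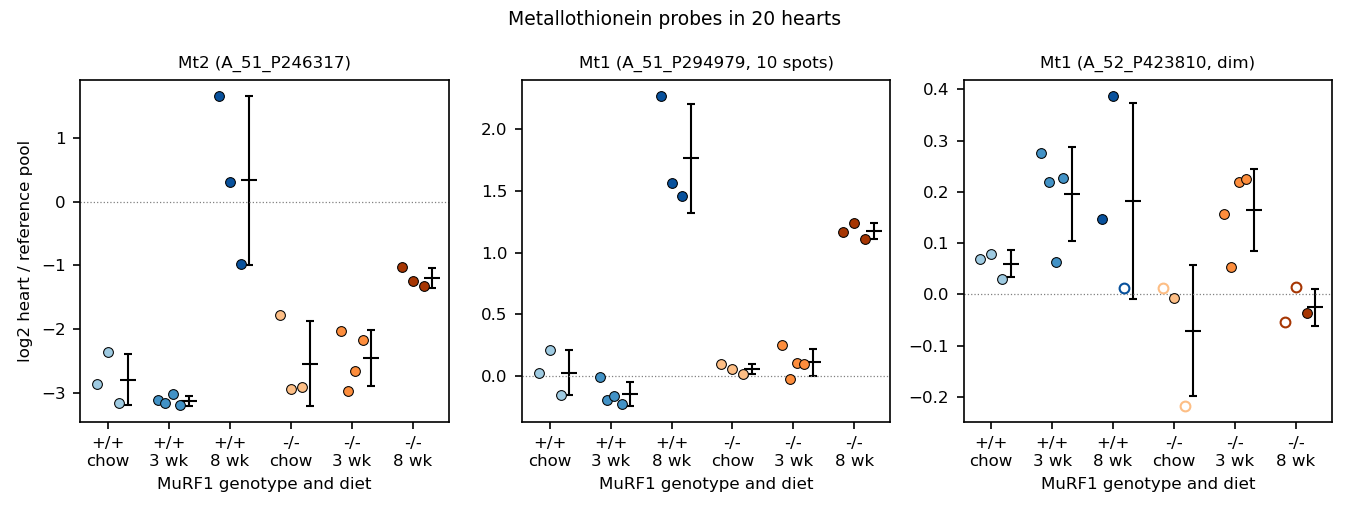
Log2 ratio of heart over pup pool for the 3 probes in 20 hearts; each panel has its own vertical scale. Points are hearts, open points are not well above background, and bars beside them give the group mean and SD. Mt2 and the 10-spot Mt1 probe are higher in both 8-week groups than in chow and 3-week hearts, while the dim Mt1 probe is not.

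Mt1, read on its 10-spot probe, showed the same arrangement with less scatter. Its log2 levels were 0.029, 0.21 and -0.15 in MuRF1 +/+ chow hearts and -0.0048, -0.19, -0.16 and -0.22 in MuRF1 +/+ 3-week hearts. In the MuRF1 +/+ 8-week hearts they were 2.27, 1.56 and 1.46. The heart with the highest Mt1 was thus also the heart with the highest Mt2. The MuRF1 -/- chow hearts had 0.0999, 0.0605 and 0.019, the MuRF1 -/- 3-week hearts 0.25, -0.020, 0.11 and 0.10, and the MuRF1 -/- 8-week hearts 1.17, 1.24 and 1.11. No 8-week heart overlapped with a chow or 3-week heart in either genotype. Such separation was common on the arrays: 28.4% and 23.3% of all tested probes separated 8 weeks from chow in MuRF1 +/+ and MuRF1 -/- hearts, and 23.4% and 39.5% separated 8 from 3 weeks.

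The 10 spots of this Mt1 probe show how precise a level is on 1 array. The SD between spots ran from 0.0131 to 0.0662 log2 units per array, with 9 spots in use on replicate 2 of the MuRF1 +/+ 8-week group, where 1 was marked as an outlier. The SD between hearts was 0.0406 in the MuRF1 -/- chow group and 0.44 in the MuRF1 +/+ 8-week group. In the MuRF1 +/+ 8-week group the spread between hearts was thus larger than the spread between spots on any array. Mt2 had a single spot per array, so no such check exists for it.

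**Figure D2:**
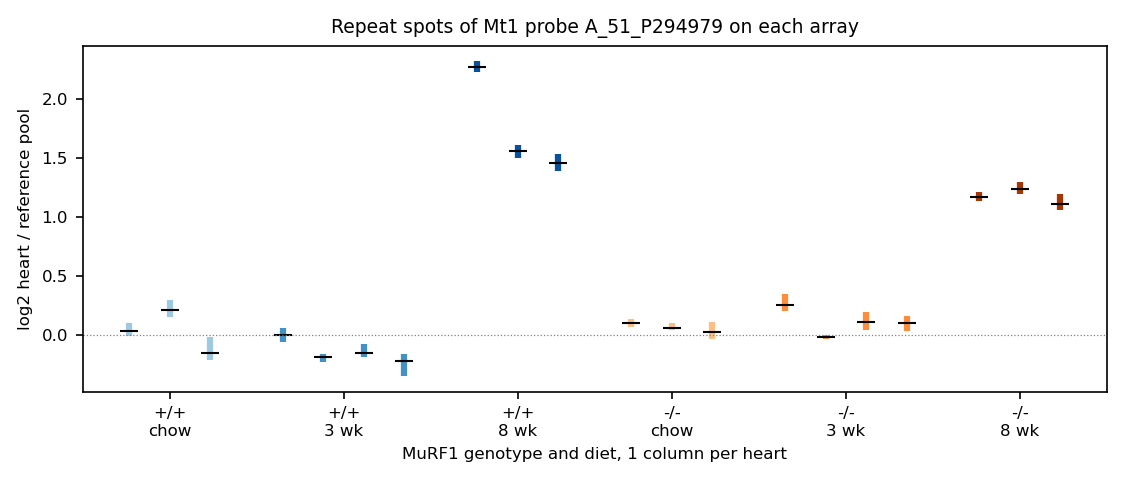
Log2 ratio of the repeat spots of Mt1 probe A_51_P294979, 1 column per heart; coloured bars span the lowest to the highest spot and black marks give the mean. The bars are short against the gap between the 8-week hearts and the rest.

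The dim Mt1 probe did not follow the other 2. It was well above background on 15 of 20 arrays, in 1 of 3 MuRF1 -/- chow and 1 of 3 MuRF1 -/- 8-week hearts, and its group means ran from -0.071 in MuRF1 -/- chow to 0.20 in MuRF1 +/+ 3-week hearts. Its correlation with the 10-spot Mt1 probe over 20 arrays was 0.0116, and 0.13 after each group's mean was removed. The probe's raw heart signal was 40 to 76 over a local background of 32 to 38.5. Where the 2 Mt1 probes disagree, the level of Mt1 is given here from the 10-spot probe.

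By group mean, Mt2 and Mt1 shared 1 order: MuRF1 +/+ 3-week, MuRF1 +/+ chow, MuRF1 -/- chow, MuRF1 -/- 3-week, MuRF1 -/- 8-week, MuRF1 +/+ 8-week. Mean Mt2 was -3.13 ± 0.077 (SD, n = 4), -2.79 ± 0.41 (n = 3), -2.55 ± 0.67 (n = 3), -2.46 ± 0.44 (n = 4), -1.20 ± 0.16 (n = 3) and 0.33 ± 1.32 (n = 3). Mean Mt1 was -0.14 ± 0.097, 0.028 ± 0.18, 0.0597 ± 0.041, 0.11 ± 0.11, 1.17 ± 0.065 and 1.76 ± 0.44 in the same order and numbers of hearts. The first 4 groups overlapped with their neighbours for both genes, with gaps between neighbouring means of at most 0.33 for Mt2 and 0.17 for Mt1. The step from MuRF1 -/- 3-week to MuRF1 -/- 8-week hearts had no overlap for either gene. The step to MuRF1 +/+ 8-week hearts had none either, though for Mt2 the nearest hearts were -1.02 and -0.98, and 18% of probes separated the genotypes at 8 weeks.

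In MuRF1 -/- hearts, which the choice of the genes did not use, 8 weeks of fenofibrate raised Mt1 2.16-fold over chow. The log2 difference was 1.11 ± 0.15 (SE), with an adjusted p of 0.000631 by limma, adjusted by the Benjamini-Hochberg method over the 20840 probes tested. Mt2 differed by 1.35 ± 0.45, or 2.55-fold, with a 95% confidence interval of 0.41 to 2.29 and an adjusted p of 0.155, so it did not pass the threshold of 0.05 although its groups did not overlap. The spread in the fit is shared by all 6 groups, so the MuRF1 +/+ 8-week hearts (Mt2 SD 1.32) enter this p-value. The 2 groups compared had Mt2 SDs of 0.16 at 8 weeks and 0.67 on chow. Without the 2 arrays that stand apart, neither of which is in these groups, Mt2 had an adjusted p of 0.0866 and Mt1 one of 0.000175. Leaving out 1 heart at a time, the Mt2 difference ran from 1.15 to 1.73 with adjusted p of 0.117 to 0.412. Mt2 passed where the arrays were weighted by their quality (1.44, adjusted p = 0.00704) and where only the 2 groups compared entered the fit (1.35, adjusted p = 0.0152). The dim Mt1 probe differed by 0.046 ± 0.089 (adjusted p = 0.954). Of the 3 probes 1 was thus called, where 1.89% of all tested probes were called in this comparison, and 23.3% of probes had groups that did not overlap.

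Between 3 and 8 weeks of fenofibrate in MuRF1 -/- hearts, both bright probes rose. Mt1 was 2.09-fold higher at 8 weeks (1.06 ± 0.14, adjusted p = 2.62e-05) and Mt2 2.40-fold higher (1.26 ± 0.42, adjusted p = 0.0284). The dim probe differed by -0.19 ± 0.083 (adjusted p = 0.092). Of the 3 probes 2 were called here, but 31.6% of all tested probes were called and 39.5% had groups that did not overlap, so calls were common in this comparison. The call for Mt2 was close to the threshold. It was lost without replicate 2 or 3 of the MuRF1 -/- 3-week group and without replicate 1, 2 or 3 of the 8-week group, with adjusted p from 0.0616 to 0.0883. It was also lost with the slide as a block (0.0504), in the deposited series matrix (0.0502), without the filter on dim probes (0.0607) and when the mean of Ddx3y and Eif2s3y entered the fit (0.153), while the difference stayed between 1.09 and 1.42. Without the 2 arrays that stand apart it was 1.36 (adjusted p = 0.0207), and Mt1 was 1.06 (adjusted p = 1.58e-05).

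At 3 weeks neither bright probe was called against chow or between genotypes. In MuRF1 -/- hearts Mt1 was 0.052 ± 0.14 above chow (95% confidence interval -0.24 to 0.34, adjusted p = 0.825) and Mt2 0.086 ± 0.42 above chow (-0.79 to 0.97, adjusted p = 0.908). The dim Mt1 probe was called, 0.24 ± 0.083 above chow (adjusted p = 0.0444), where 26.2% of all tested probes were called, but only 1 of 3 chow hearts was well above background and the adjusted p ran up to 0.237 with 1 heart left out. MuRF1 -/- hearts at 3 weeks had Mt2 0.67 ± 0.39 above MuRF1 +/+ hearts (-0.15 to 1.48, adjusted p = 0.999). The 4 MuRF1 -/- hearts all lay above the 4 MuRF1 +/+ hearts, as was so in either direction for 4.06% of probes. The same difference for Mt1 was 0.26 ± 0.13 (-0.014 to 0.53, adjusted p = 0.963), with overlapping groups, and 0.25% of all tested probes were called between the genotypes at 3 weeks. Without the 2 arrays that stand apart the genotype differences at 3 weeks were 0.57 for Mt2 (adjusted p = 0.513) and 0.26 for Mt1 (adjusted p = 0.335), and the difference of Mt2 from chow in MuRF1 -/- hearts was -0.013 (adjusted p = 0.985).

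The MuRF1 +/+ values are those the genes were chosen on, or share hearts or genotype with them, and carry no test. Each SE comes from a spread shared by all 6 groups, 0.549 for Mt2 and 0.182 for Mt1. The SD of the MuRF1 +/+ 8-week hearts was larger, 1.32 and 0.44, so an SE that involves them understates their scatter. At 8 weeks Mt2 was 8.75-fold above chow (3.13 ± 0.45) and Mt1 3.32-fold (1.73 ± 0.15), in a comparison where 13.4% of all tested probes were called and 28.4% had groups that did not overlap. At 3 weeks Mt2 differed from chow by -0.33 ± 0.42 and Mt1 by -0.17 ± 0.14, with overlapping groups. From 3 to 8 weeks Mt2 was 11-fold higher (3.46 ± 0.42) and Mt1 3.75-fold higher (1.91 ± 0.14). Without the 2 arrays that stand apart, the 8-week differences were 3.14 for Mt2 and 1.83 for Mt1 from chow, and 3.47 and 2.01 from 3 weeks.

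At 8 weeks the MuRF1 -/- hearts had 2.89-fold lower Mt2 than the MuRF1 +/+ hearts (-1.53 ± 0.45) and 1.5-fold lower Mt1 (-0.59 ± 0.15). The SEs here also use the spread shared by all 6 groups, which is below that of the MuRF1 +/+ 8-week hearts. Both Y-linked transcripts were above background in 0 of 3 MuRF1 +/+ and 2 of 3 MuRF1 -/- hearts at 8 weeks. A difference of sex thus cannot be told apart from genotype at 8 weeks or in the 8-week response. On chow the genotypes differed by 0.25 ± 0.45 for Mt2 and 0.031 ± 0.15 for Mt1, with overlapping hearts. The genes were chosen for a rise in MuRF1 +/+ 8-week hearts. Lower levels and smaller responses in MuRF1 -/- hearts at 8 weeks can thus come from that choice alone. The 8-week response was smaller in MuRF1 -/- hearts, again as a description. MuRF1 -/- minus MuRF1 +/+ it differed by -1.78 ± 0.63 log2 units for Mt2 and by -0.62 ± 0.21 for Mt1. These sizes depended on the first MuRF1 +/+ 8-week heart, without which they were -1.12 for Mt2 and -0.37 for Mt1. With the other hearts left out in turn they reached -2.44 and -0.77, both without the third MuRF1 +/+ 8-week heart. With arrays weighted by their quality they were -0.82 and -0.42, and in the deposited series matrix -1.26 and -0.34. They were -1.79 and -0.72 without the 2 arrays that stand apart, and the genotype differences at 8 weeks were then -1.54 and -0.69.

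**Figure D3:**
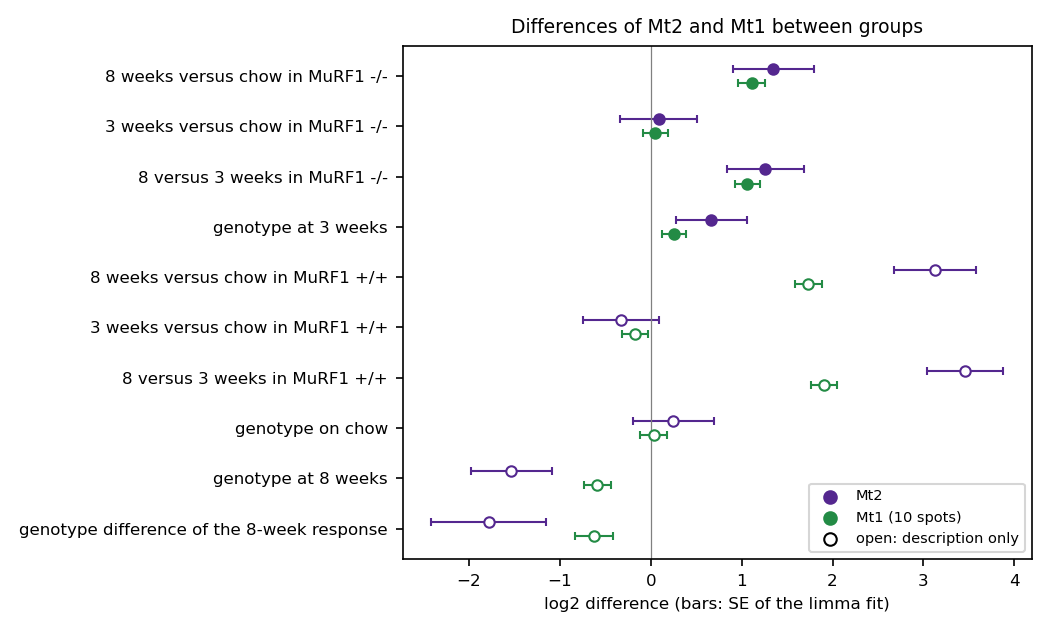
Log2 differences of Mt2 and of the 10-spot Mt1 probe in 10 comparisons, with the SE of the fit, from a spread shared by all 6 groups. Genotype comparisons are MuRF1 -/- minus MuRF1 +/+. Filled points were tested and open points are descriptions. The 8-week differences lie to the right of 0 in both genotypes and the 3-week differences from chow lie near it.

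After normalization the heart channel carried the change at 8 weeks, but the reference channel moved too. The raw Mt2 signal of the first MuRF1 +/+ 8-week heart was 15077, where the other 2 hearts of its group had 2917 and 1651. Its reference signal at Mt2 was 2355, while the other 19 arrays had 3574 to 7481. The second MuRF1 +/+ 8-week heart, an array that stands apart, had a mean raw Mt1 signal of 1583 (reference 1786). Chow hearts had 1043 to 1579, so the Mt1 level of 1.56 in that heart rests on the normalization within its array. After normalization the mean reference level at Mt2 was 11.9 log2 units in the MuRF1 +/+ 8-week group and between 12.2 and 12.4 in the other 5 groups. On the heart channel alone, the MuRF1 +/+ 8-week difference from chow was 2.77 for Mt2 and 1.84 for Mt1, against 3.13 and 1.73 for the ratios. The MuRF1 -/- hearts gave, on the heart channel alone, 1.40 for Mt2 (adjusted p = 0.134) and 1.22 for Mt1 (adjusted p = 0.00571). Agilent's own log ratio gave MuRF1 +/+ differences of 2.97 and 1.65 and MuRF1 -/- differences of 1.46 and 1.13.

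The arrays fell on 5 slides by scan time, which matches the slide each array is named for. On the 4 arrays of 1 slide, which hold chow and 3-week hearts, another header field names a different slide. Slides that held both an 8-week and a chow heart gave the same direction as all arrays together. In MuRF1 +/+ hearts there were 2 such slides, with Mt2 differences of 3.47 and 4.02 and Mt1 differences of 1.71 and 2.06. The MuRF1 -/- groups shared 1 such slide, with 1.70 for Mt2 and 1.18 for Mt1. From 3 to 8 weeks the 2 slides with both MuRF1 -/- groups gave 0.84 and 1.73 for Mt2 and 1.01 and 1.26 for Mt1. Between genotypes at 8 weeks the 2 slides gave -0.35 and -2.69 for Mt2 and -0.35 and -1.10 for Mt1. At 3 weeks the Mt2 difference between genotypes was 1.04, 1.08 and 0.047 on its 3 slides, the 1.08 being from the slide with the conflicting header.

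Among the 3 MuRF1 -/- 8-week hearts, 2 had both Y-linked transcripts above background and 1 did not. The heart without them had Mt2 at -1.24 and Mt1 at 1.24, and the hearts with them had Mt2 at -1.02 and -1.32 and Mt1 at 1.17 and 1.11. In all 8 hearts at 3 weeks at least 1 of these Y-linked transcripts was not above background, and Mt2 there was -2.03 or lower. Only the MuRF1 -/- 8-week group held hearts both with and without the pair of transcripts. A fit that includes their mean level thus cannot separate it from diet in MuRF1 +/+ hearts or at 3 weeks. When the mean level of both transcripts entered the fit, the MuRF1 +/+ 8-week difference of Mt1 was 1.54. The 3-week differences from chow in MuRF1 -/- hearts then changed sign, to -0.046 for Mt2 and -0.15 for Mt1, without being called in either fit.

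Among markers of other cell types, the endothelial mean stood higher at 8 weeks than on chow in MuRF1 +/+ hearts, but not in MuRF1 -/- hearts. Over all genes tested, 5.66% were called higher and 8.7% lower at 8 weeks in MuRF1 +/+ hearts, and 1.04% and 1.12% in MuRF1 -/- hearts. In MuRF1 +/+ hearts the mean log2 ratio of 8 endothelial markers was 0.59 to 1.76 at 8 weeks against 0.31 to 0.38 on chow, and 4 of 8 were called higher. Without the second MuRF1 +/+ 8-week heart, an array that stands apart, the highest was 0.71. Among MuRF1 -/- hearts it was 0.27 to 0.38 at 8 weeks and 0.26 to 0.50 on chow, with 0 of 8 called in the limma fit, while Mt1 was 2.16-fold higher there. Fibroblast markers spanned -3.08 to -1.96 at 8 weeks and -3.11 to -2.99 on chow in MuRF1 +/+ hearts, with 2 of 8 called higher, and up to -2.79 without that heart. Among MuRF1 -/- hearts fibroblast markers spanned -3.54 to -3.19 at 8 weeks and -3.19 to -2.66 on chow, and those of smooth muscle and pericytes -0.88 to -0.76 and -0.75 to -0.28, both lower at 8 weeks with the nearest hearts almost level. Of these 8 and 7 markers limma called 0 in MuRF1 -/- hearts. Leukocyte and macrophage markers in MuRF1 +/+ hearts lay at -0.12 to 0.017 against -0.13 to 0.068 on chow, with 0 of 6 called in MuRF1 +/+ and 1 of 6 called lower in MuRF1 -/- hearts. The liver transcript Alb was far below the pup pool, at -2.31 or lower in every heart, and -2.31 was the second MuRF1 +/+ 8-week heart, whose Mt2 was 0.32. The part of other cell types in the Mt1 and Mt2 values was not tested.

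Mt1 and Mt2 were correlated from heart to heart. Over 20 hearts the 2 bright probes had a Pearson correlation of 0.955, and after the mean of each group was removed it was 0.834. Over the 18 hearts without the arrays that stand apart the values were 0.955 and 0.894. The points share arrays and the reference pool, and the probes may share target, so these are descriptions. In 4 of 6 groups the same heart was highest for both genes. In MuRF1 -/- 8-week hearts Mt1 was highest in replicate 2 and Mt2 in replicate 1, and in MuRF1 +/+ 3-week hearts Mt1 was highest in replicate 1 and Mt2 in replicate 3.

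**Figure D4:**
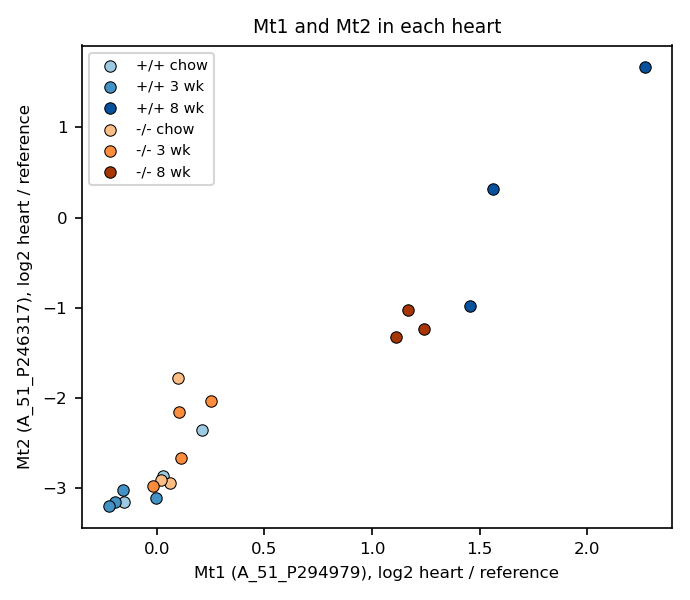
Mt2 against Mt1 (10-spot probe), both as log2 ratio of heart over pup pool, 1 point per heart. The 14 chow and 3-week hearts sit in the lower left, the 3 MuRF1 -/- 8-week hearts in the middle and the 3 MuRF1 +/+ 8-week hearts at the upper right.

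Other genes had profiles like that of Mt2, ranked by Pearson correlation over 20 arrays (19 for Lgalsl, with 1 value missing) among 14577 genes. The ranking includes the MuRF1 +/+ 8-week hearts the genes were chosen on, where Mt2 was highest and most scattered. The 8 highest were the unnamed transcript TC1533348 (0.955), the non-coding transcript 1200016E24Rik (0.926), Clec4d (0.920), Bcr (0.920), Cdkn1a (0.920), the array entry NAP066348-1 (0.918), Slc10a6 (0.899) and Lgalsl (0.891). Cdkn1a encodes the cell cycle inhibitor p21, and its mean level was -1.37 on chow, -1.20 at 3 weeks and 0.23 at 8 weeks in MuRF1 +/+ hearts, and -1.28, -1.14 and -0.43 in MuRF1 -/- hearts. At 8 weeks in MuRF1 -/- hearts Clec4d and Bcr differed from chow by only 0.078 and 0.081, and the rest of these 8 by 0.35 to 1.24. After group means were removed, the most alike genes were Clec4d (0.966), Timp1 (0.964), the transcript ENSMUST00000006171 (0.897), Cyb561a3 (0.872), Fads3 (0.871), Bcr (0.865), Ascc2 (0.831) and TC1533348 (0.823). Timp1, an inhibitor of matrix metalloproteinases that is also an acute-phase transcript, was at 1.09, -0.10 and -0.78 in the MuRF1 +/+ 8-week hearts and at 0.11, -0.62 and -0.76 in the MuRF1 -/- chow hearts. In both groups the heart with the highest Timp1 was the heart with the highest Mt2. At 8 weeks Timp1 differed from chow by 0.81 in MuRF1 +/+ and by -0.55 in MuRF1 -/- hearts. Clec4d, a lectin of myeloid cells, was well above background on only 8 arrays. With Spearman's correlation 2 of the 8 pooled and 3 of the 8 centred names recurred, and without the 2 arrays that stand apart 5 and 4 did, so the names depend on these choices.

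Of the other metallothioneins, Mt3 was measured and did not move with them. Its log2 level lay between -0.15 and 0.14 in all 20 hearts, and at 8 weeks it differed from chow by -0.11 in MuRF1 -/- (adjusted p = 0.559) and by -0.007 in MuRF1 +/+ hearts (adjusted p = 0.949). Mt4 was below the filter, with 1 heart above background on 1 of its 2 probes and 0 on the other. Besides Mt1, of the 10 nearest tested genes around Mt2 on the chromosome 0 were called at 8 weeks in MuRF1 +/+ hearts by limma, where the smallest adjusted p was that of Ogfod1 (0.111) and 14.4% of all genes were called. The MuRF1 -/- hearts had 1 of the 10 called, where 2.17% of all genes were, Herpud1 (1.14 ± 0.15, adjusted p = 0.000656), a gene of the endoplasmic reticulum stress response. Nup93, next to Mt1 on its other side, differed from chow by -0.061 in MuRF1 +/+ and 0.011 in MuRF1 -/- hearts.

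MTF-1 is the transcription factor that senses zinc, and Slc30a1, which exports zinc from the cell, is another of its known targets. Mtf1 differed from chow at 8 weeks by -0.27 in MuRF1 +/+ (adjusted p = 0.0652) and -0.31 in MuRF1 -/- hearts (adjusted p = 0.121). Slc30a1 differed by 0.40 (adjusted p = 0.101) and -0.12 (adjusted p = 0.917). Neither passed the test in either genotype. In MuRF1 +/+ hearts Slc30a1 was at 0.70, 1.40 and 0.51 at 8 weeks against 0.45, 0.35 and 0.61 on chow. Its highest heart, the second 8-week heart, was on an array that stands apart, and Mtf1 was not well above background there. Mt2 was highest in the first 8-week heart. The part of MTF-1 in the Mt1 and Mt2 values was not tested.

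Lists of zinc, copper and iron genes were read beside the metallothioneins, with 1 probe per gene. Over all genes tested, 5.66% rose and 8.70% fell at 8 weeks in MuRF1 +/+ hearts, with a median difference of 0.029, and 1.04% rose and 1.12% fell in MuRF1 -/- hearts, with a median of -0.007. Of 8 measured genes of metal sensing and zinc export, 0 were called at 8 weeks in MuRF1 +/+ or MuRF1 -/- hearts, with medians of 0.010 and -0.073. Of 11 zinc importers, 1 fell in MuRF1 +/+ hearts, Slc39a13 (-0.40 ± 0.096, adjusted p = 0.0129; -0.30, adjusted p = 0.0604, without the 2 arrays that stand apart), and 0 were called in MuRF1 -/- hearts. Of 12 copper genes, 3 rose and 2 fell in MuRF1 +/+ hearts. Among them were ceruloplasmin, Cp (0.71 ± 0.19, adjusted p = 0.0206), and the copper importer Slc31a1 (-0.35 ± 0.11, adjusted p = 0.0403), which lost its call under 10 of 16 alternatives. Of these 12, limma called 0 at 8 weeks in MuRF1 -/- hearts.

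Some iron genes were called at 8 weeks. Of 11 iron genes, 3 rose and 3 fell in MuRF1 +/+ hearts and 2 fell in MuRF1 -/- hearts, with medians of -0.023 and -0.001. Among all genes tested, 5.66% rose and 8.70% fell in MuRF1 +/+ hearts, and 1.04% rose and 1.12% fell in MuRF1 -/- hearts. Tfrc, the transferrin receptor, fell by 1.46 ± 0.18 in MuRF1 +/+ hearts (adjusted p = 0.000102), where 1 of 3 hearts was still well above background, and by 1.06 ± 0.18 in MuRF1 -/- hearts (adjusted p = 0.00500). For Tfrc, Agilent's own log ratio gave -4.09 and -2.62 and the series matrix -2.13 and -1.45, so its size depends on the processing. Slc11a2, an importer of iron, fell by 0.85 ± 0.12 (adjusted p = 0.000385) and 0.58 ± 0.12 (adjusted p = 0.0183), though the latter was -0.16 and not called in the series matrix (adjusted p = 0.818). Slc40a1, the iron exporter ferroportin, rose by 1.06 ± 0.18 in MuRF1 +/+ hearts (adjusted p = 0.00132). Tfrc was called lower at 3 weeks too, where 24.9% and 26.7% of genes were called in MuRF1 +/+ and MuRF1 -/- hearts, by 0.83 ± 0.17 (adjusted p = 0.00165) and 0.62 ± 0.17 (adjusted p = 0.0108).

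The known inducers of metallothionein were covered by 4 further lists. Their counts stand beside 5.66% of all genes that rose and 8.70% that fell at 8 weeks in MuRF1 +/+ hearts. In MuRF1 -/- hearts these shares were 1.04% and 1.12%. Of 19 glucocorticoid-inducible genes, 7 rose at 8 weeks in MuRF1 +/+ hearts (median 0.41), led by Ddit4 (1.85 ± 0.39, adjusted p = 0.00543), Cdkn1a (1.59 ± 0.17, adjusted p = 2.1e-05), Nfkbia (1.38 ± 0.38, adjusted p = 0.0237) and Sult1a1 (1.35 ± 0.19, adjusted p = 0.000385). Nfkbia was 0.17, 2.41 and 0.41 in the 3 hearts. Without the second heart its difference was 0.67 and not called (adjusted p = 0.0652), and without both arrays that stand apart it was 0.67 (adjusted p = 0.0201). Ddit4 was 1.24 (adjusted p = 0.0116) without them. In MuRF1 -/- hearts 1 rose (median 0.22), Cdkn1a (0.85 ± 0.17, adjusted p = 0.0127). Of 15 genes of interleukin-6, STAT3 and the acute phase, 5 rose in MuRF1 +/+ hearts (median 0.60), among them the transcription factors Cebpb (1.60 ± 0.24, adjusted p = 0.000515) and Cebpd (1.39 ± 0.30, adjusted p = 0.00591). In MuRF1 -/- hearts 1 rose (median 0.13), Cebpb (1.20 ± 0.24, adjusted p = 0.0137). Of 13 targets of the oxidative stress factor NRF2, 3 rose in MuRF1 +/+ hearts, among them Hmox1 (0.73 ± 0.18, adjusted p = 0.0145; 0.44 without the first 8-week heart and 0.90 without the arrays that stand apart), and 1 rose in MuRF1 -/- hearts, Gclm (0.44 ± 0.11, adjusted p = 0.0390). Of 11 hypoxia-inducible genes, 5 rose and 2 fell in MuRF1 +/+ hearts, and 1 fell in MuRF1 -/- hearts, Egln3 (-0.99 ± 0.19, adjusted p = 0.0129).

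**Figure D5:**
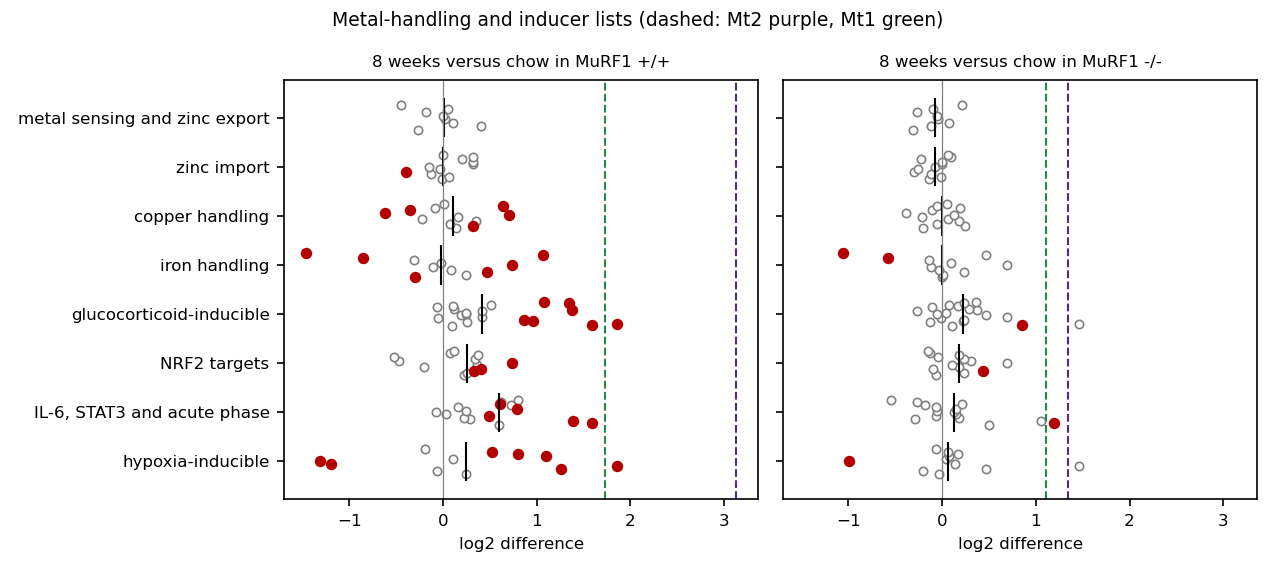
Log2 difference of 8 weeks from chow for each measured gene of 8 lists, by genotype. Filled points passed an adjusted p of 0.05, black lines are list medians, and dashed lines mark Mt2 (purple) and the 10-spot Mt1 probe (green). In MuRF1 +/+ hearts the point farthest to the right is Ddit4 at 1.85, left of the Mt2 line at 3.13.

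The counts of the 8 lists together depended on which arrays were used. Of 97 genes, 32 were called at 8 weeks in MuRF1 +/+ hearts and 6 in MuRF1 -/- hearts, where 14.4% and 2.17% of all genes were called. Without the 2 arrays that stand apart the counts were 31 and 14, and with 1 heart left out at a time they ran from 14 to 44 and from 1 to 6. Genotype differences of these genes at 8 weeks were called for 0 of 97 in limma, where 0.151% of all genes were called, so a difference in calls between the genotypes does not show a difference between them. Of the genes named above, Cdkn1a, Cebpb, Cebpd, Ddit4, Slc11a2, Slc40a1, Sult1a1 and Tfrc kept their MuRF1 +/+ calls under all 16 alternatives, while Slc39a13, Hmox1 and Nfkbia each lost theirs under 5 and Cp under 2. Of the MuRF1 -/- calls, Tfrc held under 16 of 16, Cebpb under 12, Cdkn1a under 11, Egln3 under 10, Slc11a2 under 8 and Gclm under 5.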

How the data were processed

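Heart RNA and the common reference were hybridised to 20 2-colour Agilent arrays. The sources disagree on the heart's dye: the channel labels name Cy5, the heart samples' labelling protocol Cy3. The channel labels were followed; the other reading would turn every ratio. Cardiomyocyte transcripts were brighter in the Cy5 channel on all arrays. Spot intensities are mean signals and median local backgrounds, extracted with Agilent Feature Extraction per the file headers, as are the flags of 0 or 1 for background, saturation and outliers. Per the file headers, the log10 ratios deposited beside them had been background-subtracted and dye-normalized. A deposited series matrix gives the authors' log2 values of heart over reference. Set against the scanner ratios its slope was 0.969 to 1.00 per array, and its centring is unstated.

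Intensities were background-corrected (normexp, offset 50, leaving out spots whose background exceeded the signal by over 50) and normalized within each array by loess, in R 4.3.3 with limma 3.58.1. Control spots had weight 0, 105 to 423 outlier spots per array were treated as missing, and spots of a probe were averaged. Tested probes (20840 of 41174) were those whose heart signal the software flagged as well above background on 3 or more arrays; they were fitted in 1 model of 6 group means, by limma with an intensity trend and Benjamini-Hochberg adjustment over all of them, at 0.05. The p-values measure the spread between these samples, labelled biological replicates, with 1 spread per probe shared by all 6 groups. A group with a wider spread thus enters every comparison. The 3 to 4 arrays per group limit the precision. The script was tested on simulated data. Lists used the brightest tested probe per gene.

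The members and lists were chosen with earlier results of these data known. The rule named both members, up to 4 called genes per list and comparison, Mt3, Mt4, Mtf1, Slc30a1, and the 8 genes most like Mt2 by Pearson correlation, pooled and group-centred. Alternatives covered background, normalization, filter, slide, replicate number, array weights, samples in the fit and each array left out. Promoters matched RefSeq for 4 of 4 genes; protein and probe sequences were not used here.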

Additional observations from a re-analysis of the deposited data

How the results depend on the processing

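The rise of Mt1 (10-spot probe) in MuRF1 -/- hearts kept its direction and its call under all 13 settings that used every heart of the comparison or left out the 2 arrays that stand apart, at 1.05 to 1.22 against chow and with adjusted p at most 0.0172 (limma). The call of Mt2 at 8 against 3 weeks in MuRF1 -/- hearts was lost in the series matrix (1.33), without the filter on dim probes (1.26), with the slide as a block (1.15) and with the Y-linked covariate (1.36). With 1 heart left out it ran from 1.09 to 1.41. Mt2 at 8 weeks against chow in MuRF1 -/- hearts became a call with array weights (1.44) and with only its own groups in the fit (1.35). The difference of Mt2 at 3 weeks from chow in MuRF1 -/- hearts changed sign without the 2 arrays (-0.013), with the Y-linked covariate (-0.046) and with 1 heart left out (-0.115 to 0.47: -0.057 and -0.013 without 3-week replicates 1 and 4, -0.115 and -0.098 without chow replicates 2 and 3). That of Mt1 changed sign with the covariate (-0.147), and in MuRF1 +/+ hearts it was -0.38 there. At 3 weeks against chow this covariate cannot be separated from diet. Signs of the dim Mt1 probe turned at 8 weeks in MuRF1 -/- hearts on the heart channel alone (-0.005) and with 1 heart left out (-0.028 to 0.087), and between genotypes at 3 weeks (-0.077 to 0.004). The cause was not tested.

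Among described values, the MuRF1 +/+ 8-week difference of Mt1 was 1.51 in the series matrix, 1.53 with array weights and 1.54 with the covariate, and that of Mt2 2.26 with array weights. From 3 to 8 weeks Mt1 was 1.68 in the series matrix and Mt2 2.58 with array weights. Genotype differences at 8 weeks were -0.38 (matrix) and -0.39 (weights) for Mt1 and -0.65 (weights) for Mt2, and differences of the response -0.34 and -0.42 for Mt1 and -0.82 for Mt2. With 1 heart left out, the MuRF1 +/+ 8-week differences ran from 1.48 to 1.89 for Mt1 and 2.46 to 3.79 for Mt2, those of 8 from 3 weeks from 1.65 to 2.06 and 2.79 to 4.12, the genotype differences at 8 weeks from -0.743 to -0.336 and -2.19 to -0.866, and the differences of the response from -0.774 to -0.367 and -2.44 to -1.12.

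Counts of list genes called, 6 and 32 at 8 weeks in MuRF1 -/- and +/+ hearts and 18 and 21 at 3 weeks, moved with the setting. At 8 weeks in MuRF1 -/- hearts they were 3 when the background correction used all spots, 1 with the slide as a block, 14 with array weights and 14 without the 2 arrays. At 8 weeks in MuRF1 +/+ hearts they were 21 with Agilent's ratio and 19 in the series matrix. At 3 weeks in MuRF1 -/- hearts they were 10, 8, 41 and 36 with all spots, the matrix, weights and without the 2 arrays. At 3 weeks in MuRF1 +/+ hearts they were 11, 13, 43 and 35 with the matrix, the slide, weights and without the 2 arrays. With 1 heart left out they ran from 1 to 6, 14 to 44, 13 to 23 and 10 to 17.

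With the replicate block Mt1 rose by 1.11 (adjusted p = 0.000835) at 8 weeks in MuRF1 -/- hearts, Mt2 differed by 1.35 (adjusted p = 0.0982), and Mt2 rose by 1.30 from 3 to 8 weeks (adjusted p = 0.0165, limma). Of 28 same-numbered pairs 12 correlated above 0.1 (from -0.524 to 0.457). This does not decide whether the numbers pair the samples, and the main fit did not use them as pairs.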

Other observations

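The array entry LOC574530 on probe A_51_P432820, read here beside the other metallothioneins, was picked out after its values were seen. It was well above background in 8 of 8 hearts at 3 weeks of fenofibrate, 1 of 6 at 8 weeks and 0 of 6 on chow, with levels of -0.021 to 1.69, -1.47 to -0.996 and -1.77 to -1.30. Mt1 and Mt2 were low both in the 3-week hearts, where it was high, and in the chow hearts, where it was not above background.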
